A study of Mus musculus with 22 samples.

Results

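A set of genes that mark neurons using a transmitter other than noradrenaline were followed through RNA of the mouse locus coeruleus. The genes were chosen by symbol, and all 9 of 9 were found among the 12596 genes of the deposited table. They are Gad1 and Gad2 (GABA), Slc32a1 (GABA and glycine), Slc6a5 (glycine), Slc17a6 and Slc17a7 (glutamate), Tph2 and Slc6a4 (serotonin) and Chat (acetylcholine). The series comprised 22 libraries from 11 mice, each with 1 library of immunoprecipitated RNA (IP) and 1 of RNA before the immunoprecipitation (input). All mice came from a cross, on a C57Bl/6 background, of the Th-cre line with the Slc6a2-eGFP/Rpl10a line, so every group carried both transgenes. Infusion was with hTyr, human tyrosinase, in 5 animals and with the fluorescent protein EYFP, the control, in 6. Animals are named by treatment and number, hTyr-501, hTyr-502, hTyr-508, hTyr-509 and hTyr-510, and EYFP-504, EYFP-505, EYFP-506, EYFP-507, EYFP-511 and EYFP-512. Both fractions of both treatments make 4 groups. Age, sex, time after infusion and batch are not given in the sources used here. The tagged ribosomal protein is driven by regulatory sequence of Slc6a2, the noradrenaline transporter gene, and untagged cells of the tissue remain in the input.

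The locus coeruleus is a small pontine nucleus of noradrenergic neurons. It borders cell groups that use GABA, glutamate, serotonin or acetylcholine, among them the dorsal raphe and the laterodorsal tegmental nucleus. A neuron's transmitter is set by the enzyme that makes it, the transporter that loads it into vesicles and, for several transmitters, the transporter that takes it back up. Pulling down a tagged ribosomal protein enriches the RNA translated in tagged cells, while RNA of neighbouring cells can be carried along. In bulk RNA such as this, fewer cells of a type and less RNA per cell cannot be told apart.

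The tissue was first checked against 5 noradrenergic genes (Th, Dbh, Slc6a2, Slc18a2 and Phox2a), which were read in every library. IP minus input of the same animal averaged 4.15 ± 0.59 on the log2 scale for Dbh, which converts dopamine to noradrenaline, and 2.35 ± 0.62 for Th, the first enzyme of catecholamine synthesis (SD, n = 11 animals each). All 5 were higher in IP in both treatments. Libraries held 12654489 to 25100142 reads, and the lowest count of any of the 9 genes in any library was 103 reads. Summed levels of 7 oligodendrocyte genes were 5756 to 8032 CPM, the library-scaled read count, in IP and 6231 to 8792 CPM in input. For 6 astrocyte genes they were 1035 to 1615 CPM in IP and 1013 to 1294 CPM in input, and for 6 microglia genes 140.53 to 273 CPM in IP and 145 to 256 CPM in input. None of these glial genes was at 0 in any group, so RNA of untagged cells was present in IP, and its part in the results below was not tested.

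The promoters of 4 genes are shown because they span the range of the results: Tph2, Slc17a6 and Gad1 stood highest in IP relative to input and Slc17a7 lowest. Each is the RefSeq window (GRCm38.p6) from 250 bases before to 50 after the start site, read 5′ to 3′ on the gene's strand, and capitals mark motif matches. The positions are chr10:115184973-115185272 (minus strand) for Tph2, chr7:51621580-51621879 (plus) for Slc17a6, chr2:70561879-70562178 (plus) for Gad1 and chr7:45163671-45163970 (plus) for Slc17a7.
Tph2: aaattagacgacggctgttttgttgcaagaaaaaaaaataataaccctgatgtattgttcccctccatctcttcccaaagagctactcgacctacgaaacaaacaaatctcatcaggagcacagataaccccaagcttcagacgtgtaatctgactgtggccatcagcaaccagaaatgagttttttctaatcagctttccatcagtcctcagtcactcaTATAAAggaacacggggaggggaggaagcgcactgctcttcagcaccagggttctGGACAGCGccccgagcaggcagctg
Slc17a6: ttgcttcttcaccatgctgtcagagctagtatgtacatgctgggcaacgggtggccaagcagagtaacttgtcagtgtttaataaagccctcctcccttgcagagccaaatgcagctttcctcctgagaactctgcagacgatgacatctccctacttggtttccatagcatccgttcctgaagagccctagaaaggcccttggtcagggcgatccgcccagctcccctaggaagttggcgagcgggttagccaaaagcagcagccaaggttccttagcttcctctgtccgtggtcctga
Gad1: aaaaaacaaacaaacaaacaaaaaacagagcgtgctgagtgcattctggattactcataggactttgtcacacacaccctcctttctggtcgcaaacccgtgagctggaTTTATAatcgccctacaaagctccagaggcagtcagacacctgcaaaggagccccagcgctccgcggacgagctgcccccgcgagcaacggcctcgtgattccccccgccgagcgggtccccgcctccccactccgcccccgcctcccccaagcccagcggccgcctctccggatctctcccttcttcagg
Slc17a7: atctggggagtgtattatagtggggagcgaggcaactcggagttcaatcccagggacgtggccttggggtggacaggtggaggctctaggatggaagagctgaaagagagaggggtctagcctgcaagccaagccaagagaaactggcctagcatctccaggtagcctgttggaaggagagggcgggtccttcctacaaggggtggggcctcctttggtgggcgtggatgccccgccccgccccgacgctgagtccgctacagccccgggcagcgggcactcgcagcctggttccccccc
The 9 genes matched 11 RefSeq promoters of 300 bases, since Slc6a5 and Slc17a6 have a pair of starts each. A paired homeodomain site (the letters TAAT, any 3 bases, then ATTA; the same on both strands) was found in 0 of the 11 and in 0.487% of all 32851 mouse promoters of that length. The TATA box letters TATAAA, searched on both strands, were found in Tph2 at position -30 and, on the reverse strand, in Gad1 at -141, against 13.616% of all promoters. The letters GGACAGCG, the right side of the RE1 element bound by the repressor REST, were found in Tph2 at 26 and in Gad2 at -155, against 1.257% of all promoters. The last motif was picked after these sequences had been read. The motifs do not overlap in these windows, and a match describes letters only.

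Levels are compared between genes as CPM per kilobase of exon, taking all annotated exons of a gene (2.797 kilobases for Slc32a1 and 7.639 for Gad1). In input the order was Slc32a1 (61.1 CPM per kilobase), Slc17a7 (43.0), Gad1 (24.5), Gad2 (21.6), Slc17a6 (20.6), Slc6a5 (13.6), Tph2 (9.49), Slc6a4 (3.68) and Chat (1.5), as means over 11 animals. The GABA and glutamate genes thus stood above the serotonin and cholinergic genes. Ranges over animals did not overlap between Slc17a6 and Slc6a5, Tph2 and Slc6a4, or Slc6a4 and Chat, while the other neighbours overlapped. In IP, Slc32a1 was again first (69.1) and Chat last (2.30 CPM per kilobase). Slc17a6 stood second (47.5), ahead of Gad1 (44.9), Slc17a7 (31.2), Gad2 (28.3), Tph2 (22.9), Slc6a5 (12.7) and Slc6a4 (4.82). In IP, Slc17a6 exceeded Gad1 in 6 of 11 animals and Slc17a7 exceeded Gad2 in 3 of 11, so these neighbours were not separated. The first place of Slc32a1 depends on the exon length. In log2 CPM, without it, Gad1 exceeded Slc32a1 in 11 of 11 animals in IP and in 9 of 11 in input.

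**Figure D1:**
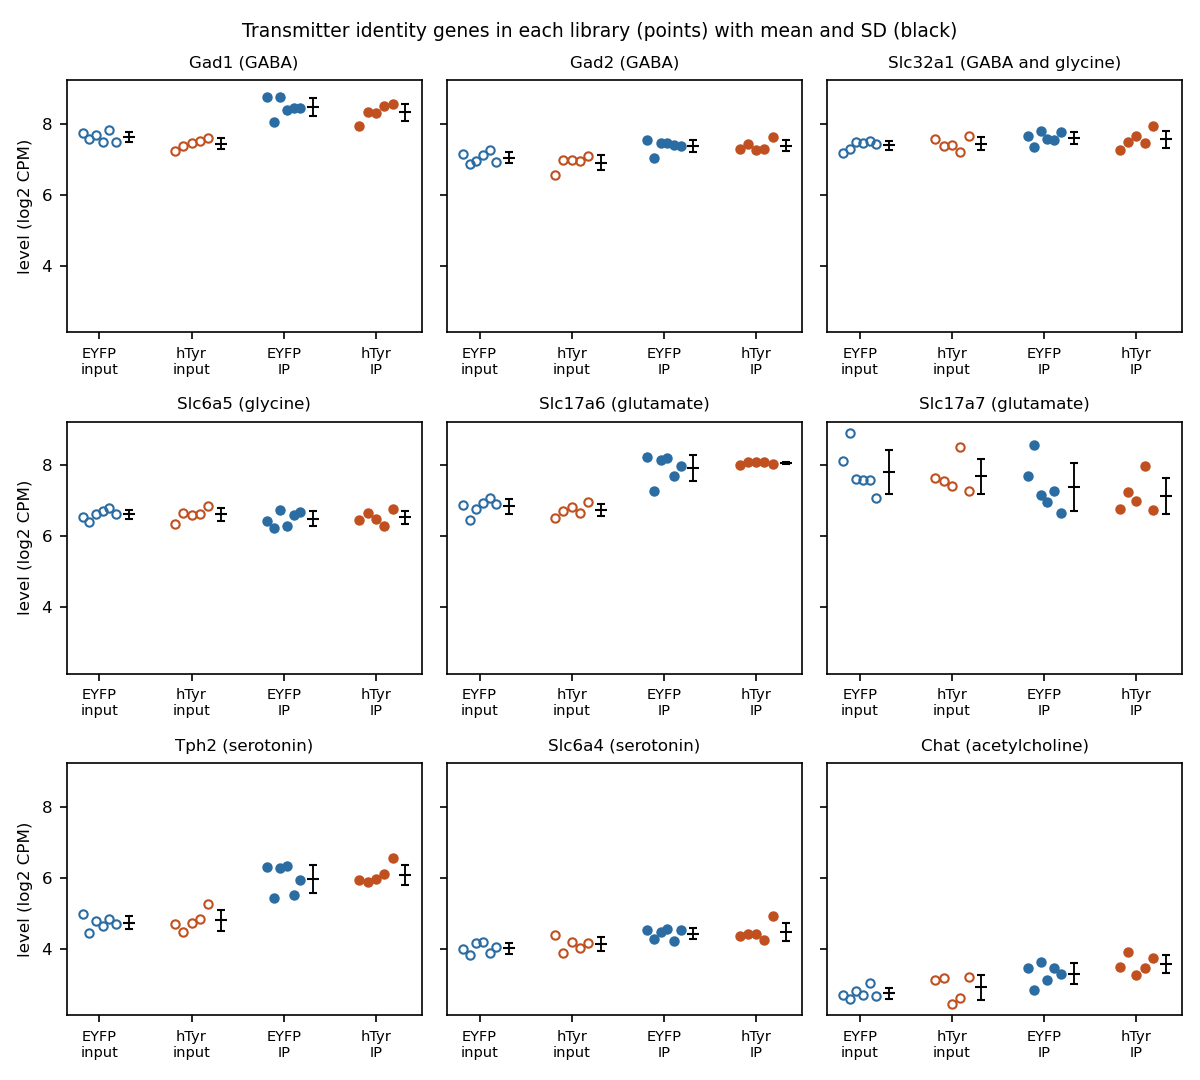
Level of each gene (log2 CPM, vertical axis) in the 22 libraries. Open circles are input and filled circles IP, blue is EYFP (n = 6) and orange hTyr (n = 5), and black marks show the mean and SD. IP lies above input for Gad1, Slc17a6 and Tph2 with no overlap, and EYFP-505 and hTyr-509 give the highest Slc17a7 points.

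IP against input asks which of these RNAs stood higher after the immunoprecipitation and which were depleted. Of 6 astrocyte genes 3 also rose and 0 fell in each treatment, and whether a rise reflects RNA of noradrenergic cells was not tested. The most enriched were Tph2, Slc17a6 and Gad1, at about the same size in EYFP and hTyr animals, and Slc17a7 was lower in IP in 11 of 11 animals. In EYFP animals 7 of the 9 genes were higher in IP and 0 lower at an adjusted p under 0.05 (limma over all 12596 genes, Benjamini-Hochberg, IP and input not paired by animal). Of all genes 28.5% were called higher and 28.1% lower there, 56.5% in all. In hTyr animals 6 of 9 were higher and 0 lower, against 27.4% of all genes higher and 27% lower, 54.4% in all. With a minimum of 1 on the log2 scale, 2 genes remained in each treatment, Slc17a6 and Tph2, where 3.06% of all genes in EYFP and 5.43% in hTyr were called higher. With the animal as a block and no minimum, 7 genes were higher and 1 lower in EYFP, and 6 higher and 1 lower in hTyr. The lower gene was Slc17a7 in both treatments. The median of the 9 differences was 0.41 in EYFP and 0.48 in hTyr, and that of all genes -0.03 and -0.04. The noradrenergic genes lay well above, with a median of 3.49 in EYFP and 3.82 in hTyr.

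**Figure D2:**
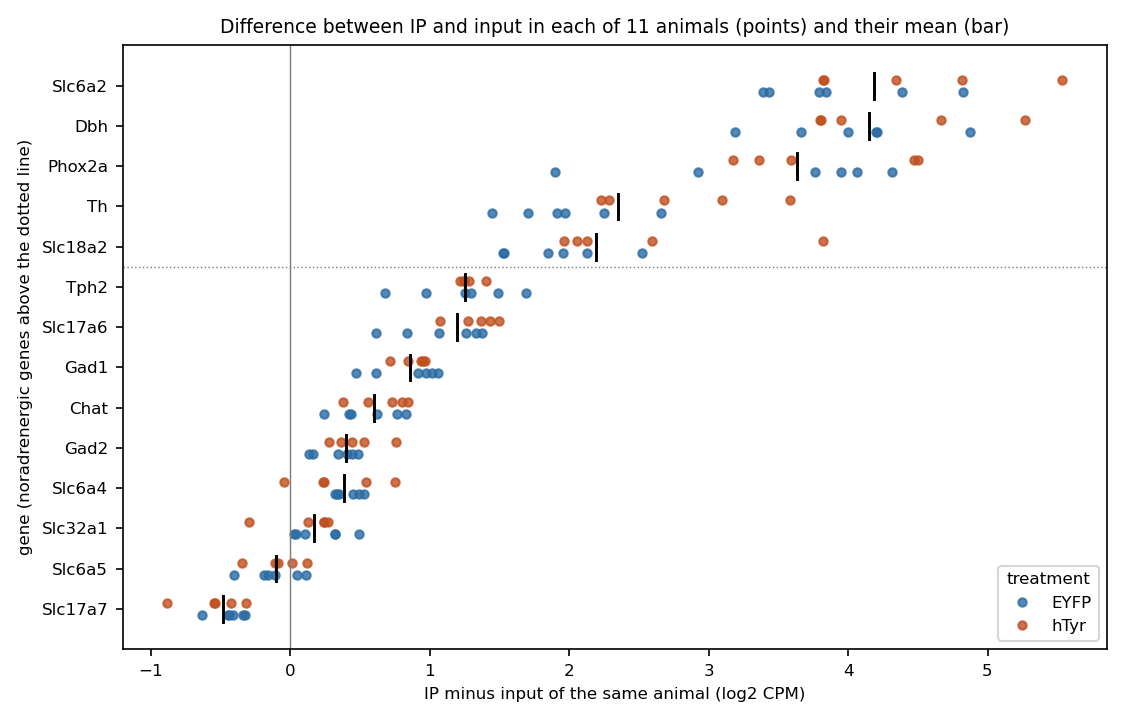
IP minus input of the same animal (log2 CPM, horizontal axis) for the 9 genes and, above the dotted line, 5 noradrenergic genes. Points are the 6 EYFP (blue) and 5 hTyr (orange) animals and bars the mean of 11. The means run from -0.48 for Slc17a7 to 1.25 for Tph2, and the noradrenergic means lie between 2.19 and 4.18.

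Gad1 (chr2:70553072-70602014, GRCm38, plus strand) encodes GAD67, the glutamate decarboxylase found throughout GABA neurons. In EYFP input it ranged from 7.48 through a median of 7.63 to 7.82 log2 CPM, and in EYFP IP from 8.05 through 8.44 to 8.76. In hTyr-501, hTyr-502, hTyr-508, hTyr-509 and hTyr-510 it stood at 7.22, 7.38, 7.47, 7.52 and 7.60 log2 CPM in input and at 7.94, 8.32, 8.31, 8.49 and 8.55 in IP. Every IP library thus lay above every input library. IP and input did not overlap, in either direction, for 30.1% of all genes in EYFP and 37.5% in hTyr. Gad1 rose by 0.84 (SE 0.107, adjusted p = 1.01e-05, limma) in EYFP and by 0.88 (SE 0.108, adjusted p = 4.23e-06) in hTyr, a 1.79-fold and 1.84-fold difference.

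Gad2 (chr2:22622205-22693874, plus strand) encodes GAD65, the membrane-associated form at synaptic terminals. It ranged from 6.85 through 7.03 to 7.25 log2 CPM in EYFP input and from 7.02 through 7.42 to 7.54 in EYFP IP, so the groups overlapped. In hTyr animals, in the same order as above, input was 6.54, 6.97, 6.97, 6.94 and 7.09 and IP 7.30, 7.41, 7.25, 7.30 and 7.62 log2 CPM, with no overlap. Gad2 rose by 0.33 (SE 0.0892, adjusted p = 0.00499, limma) in EYFP and by 0.48 (SE 0.103, adjusted p = 0.000991) in hTyr. An alternative added after the data were seen corrected every library for exon length and for the GC content of the longest transcript. With it, the rises of Gad2 became 0.18 (adjusted p = 0.0430, limma) in EYFP and 0.23 (adjusted p = 0.0343) in hTyr. Within an animal, IP minus input of Gad1 exceeded that of Gad2 by 0.46 ± 0.19 on the log2 scale (SD, n = 11; 10 of 11 animals). This and the other 5 differences between a pair of genes below are given as descriptions with no test, since the 6 pairs were chosen after their values had been seen.

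Slc32a1 (chr2:158610767-158615748, plus strand) encodes VGAT, which loads GABA and glycine into vesicles. In EYFP it ranged from 7.16 through 7.44 to 7.51 log2 CPM in input and from 7.33 through 7.60 to 7.80 in IP. In hTyr the values were 7.56, 7.37, 7.40, 7.21 and 7.65 in input and 7.27, 7.49, 7.64, 7.45 and 7.92 in IP. The groups overlapped in both treatments, and only hTyr-501 had less in IP than in input. The rise of 0.22 in EYFP (SE 0.0846, adjusted p = 0.0368, limma) was no longer called without EYFP-504, EYFP-506, EYFP-507 or EYFP-512 (adjusted p of 0.139, 0.0883, 0.0550 and 0.101). In hTyr the difference was 0.12 (SE 0.114, adjusted p = 0.397). With the length and GC correction the difference became 0.44 in EYFP (adjusted p = 0.00208) and 0.44 in hTyr (adjusted p = 0.00238). The GC content of its longest transcript, 61.9%, was the highest of the 9. The antisense gene Gm14205 shares 697 exon bases with it, and whether reads were counted by strand is not given, so their reads cannot be told apart. Gad1 exceeded Slc32a1 in IP minus input by 0.69 ± 0.16 (SD, n = 11; 11 of 11 animals), which the correction lowered to 0.32 ± 0.089 (11 of 11 animals).

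Slc6a5 (chr7:49910146-49963856, plus strand) encodes GlyT2, the glycine reuptake transporter of glycinergic neurons. Its EYFP libraries ran from 6.39 through 6.62 to 6.78 log2 CPM in input and from 6.23 through 6.50 to 6.73 in IP. In hTyr it stood at 6.34, 6.64, 6.59, 6.64 and 6.86 in input and at 6.46, 6.65, 6.48, 6.29 and 6.77 in IP. Input and IP overlapped throughout, with IP higher in 4 of 11 animals. The differences were -0.12 (95% interval -0.31 to 0.08, adjusted p = 0.289, limma) in EYFP and -0.08 (-0.30 to 0.14, adjusted p = 0.521) in hTyr. Slc32a1, shared by GABA and glycine neurons, exceeded Slc6a5 in IP minus input by 0.27 ± 0.28 (SD, n = 11; 10 of 11 animals), and by 0.60 ± 0.22 (11 of 11 animals) with the length and GC correction.

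For listed genes, here and below, single differences are given without the length and GC correction. Over 12379 genes IP minus input fell as GC content rose (Spearman's rho -0.39). Of 4 genes that take up or break down GABA, Abat (the GABA transaminase) and Aldh5a1 (the next enzyme of the breakdown) rose in IP, by 0.45 and 0.35 in EYFP and by 0.51 and 0.40 in hTyr. The GABA transporter Slc6a11 fell, by 0.33 in EYFP and by 0.36 in hTyr, and the transporter Slc6a13 stood at -0.16 and -0.25. Among 7 genes of inhibitory neuron types, 1 rose and 4 fell in EYFP, where 28.5% of all genes rose and 28.1% fell. In hTyr 1 rose and 6 fell, where 27.4% of all genes rose and 27% fell. The developmental regulators Pax2 (-0.90 in EYFP, -1.01 in hTyr) and Lhx1 (-0.59, -0.79) fell the most, and Lhx5 and Tal1 fell too. Calb1, a calcium buffer of many neuron types, rose by 0.66 and 0.84. Of 5 glycine genes 2 rose and 1 fell in EYFP, and 1 rose and 1 fell in hTyr, against the same shares of all genes (28.5% and 28.1%, then 27.4% and 27%). The glial glycine transporter Slc6a9 fell (-0.34, -0.37) in both and Shmt2, a mitochondrial serine-glycine enzyme, rose (0.43, 0.65). Gldc, of the glycine cleavage system, rose by 0.92 in EYFP (adjusted p = 0.00308, limma) and stood at 0.54 in hTyr (adjusted p = 0.114).

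Slc17a6 (chr7:51622006-51671119, plus strand) encodes VGLUT2, the vesicular glutamate transporter of most brainstem glutamate neurons. In EYFP it ranged from 6.44 through 6.89 to 7.07 log2 CPM in input and from 7.28 through 8.05 to 8.22 in IP. In hTyr it stood at 6.52, 6.72, 6.82, 6.65 and 6.95 in input and at 8.01, 8.08, 8.09, 8.08 and 8.03 in IP. No IP library overlapped the input of its treatment. The hTyr IP libraries lay within an SD of 0.036, against 0.368 in EYFP IP, where EYFP-505 was lowest. Slc17a6 rose by 1.08 (SE 0.144, adjusted p = 1.51e-05, limma) in EYFP and by 1.33 (SE 0.0845, adjusted p = 7.68e-09) in hTyr, a 2.12-fold and 2.51-fold difference. After the same correction the rises were 0.89 and 1.03, still past the threshold. Over 11 animals its mean rise, 1.19, stood at percentile 97.93 of all genes.

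Slc17a7 (chr7:45163949-45176142, plus strand) encodes VGLUT1, the glutamate transporter of cortical, hippocampal and cerebellar granule neurons. In EYFP it ranged from 7.08 through 7.60 to 8.91 log2 CPM in input and from 6.64 through 7.21 to 8.56 in IP. In hTyr it stood at 7.63, 7.57, 7.40, 8.52 and 7.28 in input and at 6.75, 7.25, 6.98, 7.97 and 6.74 in IP. Groups overlapped because animals differed widely, with EYFP-505 and hTyr-509 highest in both fractions, yet within an animal IP was lower every time. The differences were -0.43 (SE 0.297, adjusted p = 0.224, limma) in EYFP and -0.54 (SE 0.226, adjusted p = 0.0509) in hTyr. With the animal as a block, they kept these sizes and passed (adjusted p = 5.57e-06 in EYFP and 1.68e-05 in hTyr). Leaving out 1 animal also brought the unblocked fits past the threshold, EYFP-505 in EYFP (-0.45, adjusted p = 0.0398) and hTyr-509 in hTyr (-0.54, adjusted p = 0.00115). The length and GC correction shrank the unblocked differences to -0.32 (adjusted p = 0.353, limma) in EYFP and -0.38 (adjusted p = 0.180) in hTyr. With the correction and the block together they passed (adjusted p = 5.19e-05 in EYFP and 0.000122 in hTyr). Slc17a6 minus Slc17a7 was -0.96 ± 0.68 in input and 0.71 ± 0.77 in IP on the log2 CPM scale. The shift of 1.68 ± 0.38 (SD, n = 11) was positive in 11 of 11 animals. With the length and GC correction it was 1.30 ± 0.27 (11 of 11 animals).

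Slc17a7 differed more among animals than between groups. Over the 22 libraries, as deviations from the 4 group means, its pattern was most like that of Camk2a (r = 0.977), a kinase abundant in forebrain excitatory neurons, then Wasf1 (0.962) and Ptk2b (0.959). Camk2a in input was 9.52 log2 CPM in EYFP-505 and 8.89 in hTyr-509, against 7.45 to 8.55 in the other 9. A list of forebrain excitatory genes, put together after these values were seen, held 5 genes of the table (Neurod6, Tbr1, Camk2a, Nrgn and Hpca). Their summed level in input was 2278 CPM in EYFP-505, 1572 in hTyr-509 and 1190 in EYFP-504, and 706 to 935 in the other 8 animals. The same 3 animals led Slc17a7, at 8.91, 8.52 and 8.10 log2 CPM. Camk2a had already been picked for its likeness to Slc17a7, so its part in the sum is no separate evidence. Neurod6, Tbr1, Nrgn and Hpca were each highest in input in these 3 animals too. Neurod6, a transcription factor of cortical and hippocampal neurons, had 801 reads in the input of EYFP-505 and 561 in hTyr-509, but 85 in hTyr-501 and 97 in EYFP-512. In a second list chosen the same way, 5 cerebellar genes (Gabra6, Cbln3, Neurod1, Fat2 and Pcp2) summed to 182 CPM in the input of EYFP-506, 92.7 in EYFP-511 and 73.0 in EYFP-504, and to 16.7 to 40.3 in the other animals. That order differed from the order of Slc17a7. Whether tissue from other regions was included was not tested.

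**Figure D3:**
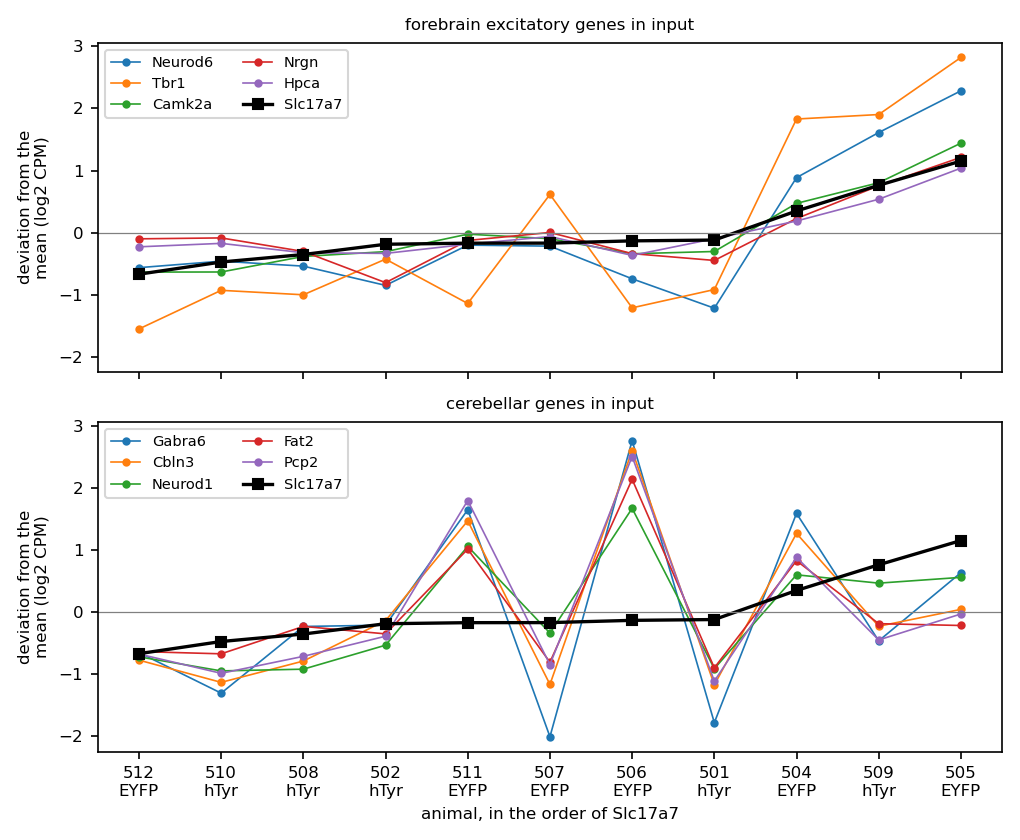
Slc17a7 (black squares) and 5 forebrain excitatory genes (upper panel) or 5 cerebellar genes (lower panel) in the 11 input libraries, as deviation from each gene's mean (log2 CPM, vertical axis). Animals are ordered by Slc17a7 (horizontal axis); the forebrain genes are highest in EYFP-505, hTyr-509 and EYFP-504, and the cerebellar genes in EYFP-506, EYFP-511 and EYFP-504.

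Glutamate is also a metabolite of every cell, and 11 genes of its metabolism and uptake were measured. In EYFP 7 rose in IP and 0 fell, and in hTyr 9 rose and 0 fell, with medians of 0.38 and 0.39. Over all genes 28.5% rose and 28.1% fell in EYFP, 27.4% rose and 27% fell in hTyr, and the medians were -0.03 and -0.04. The largest rises were those of Got2 (0.66 in EYFP, 0.65 in hTyr), an aspartate aminotransferase of mitochondria, Glud1 (0.65, 0.70), glutamate dehydrogenase, and Slc1a2 (0.59, 0.79), the main astrocyte glutamate transporter. Slc1a2 is also 1 of the 6 astrocyte genes, of which 3 rose and 0 fell in each treatment.

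Tph2 (chr10:115078641-115185022, minus strand) encodes the tryptophan hydroxylase of brain serotonin neurons. Its EYFP libraries ran from 4.45 through 4.73 to 4.99 log2 CPM in input and from 5.43 through 6.10 to 6.33 in IP. In hTyr it stood at 4.68, 4.47, 4.73, 4.84 and 5.26 in input and at 5.93, 5.87, 5.95, 6.09 and 6.54 in IP. No IP library overlapped the input of its treatment, and EYFP-505 and EYFP-511 were lowest in EYFP IP. Tph2 rose by 1.23 (SE 0.151, adjusted p = 7.39e-06, limma) in EYFP and by 1.28 (SE 0.143, adjusted p = 1.66e-06) in hTyr, a 2.35-fold and 2.42-fold difference. Its mean rise of 1.25 ranked at percentile 98.27 of all genes, the highest of the 9. It exceeded the rise of Slc17a6 by only 0.058 ± 0.19 (SD, n = 11; 7 of 11 animals), so these genes were not separated.

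Slc6a4 (chr11:76998603-77032340, plus strand) encodes SERT, the serotonin reuptake transporter. EYFP libraries ran from 3.81 through 4.02 to 4.19 log2 CPM in input and from 4.20 through 4.50 to 4.54 in IP, with no overlap. In hTyr it stood at 4.38, 3.87, 4.17, 4.02 and 4.16 in input and at 4.34, 4.41, 4.42, 4.25 and 4.91 in IP, with overlap through animal hTyr-501. It rose by 0.41 (SE 0.0928, adjusted p = 0.00133, limma) in EYFP and by 0.35 (SE 0.133, adjusted p = 0.0360) in hTyr. The hTyr call was lost without hTyr-502, hTyr-508 or hTyr-510 (adjusted p of 0.122, 0.0670 and 0.133). The serotonin enzyme exceeded the serotonin transporter in IP minus input by 0.87 ± 0.32 (SD, n = 11; 11 of 11 animals).

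Of 8 other listed genes of serotonin neurons, 1 rose and 5 fell in EYFP, and 1 rose and 3 fell in hTyr. The shares of all genes were 28.5% higher and 28.1% lower in EYFP and 27.4% higher and 27% lower in hTyr. Differences of these listed genes are not corrected for length and GC, unlike those given for Slc17a6 and Slc32a1. Maob, the monoamine oxidase of serotonin neurons and of glia, rose by 0.91 and 1.00. Fev, the serotonin-specific transcription factor, fell by 0.55 in EYFP (adjusted p = 0.0370, limma) and stood at -0.26 in hTyr (adjusted p = 0.230). Its lowest EYFP IP library held 30 reads (0.93 log2 CPM), against a group median of 83 reads (2.20 log2 CPM). Within EYFP animals IP minus input of Fev had a median of -0.41 and a minimum of -1.50. Whether the Fev call holds without that library was not tested. Lmx1b fell by 0.45 in EYFP and stood at -0.29 in hTyr. En2 (-0.67 in both), En1 (-0.31, -0.40) and the receptor Htr1a (-0.57, -0.42) fell in both treatments. Of 7 listed genes of monoamine synthesis, storage and breakdown and of cofactor metabolism, 6 rose in each treatment, against 28.5% and 27.4% of all genes. Slc18a2, the vesicular monoamine transporter, which is also among the noradrenergic genes, rose by 1.92 and 2.51, and Gch1, for cofactor synthesis, by 1.49 and 1.96.

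Chat (chr14:32408203-32465989, minus strand) encodes choline acetyltransferase. EYFP libraries ran from 2.59 through 2.69 to 3.03 log2 CPM in input and from 2.84 through 3.37 to 3.63 in IP, with overlap. In hTyr it stood at 3.12, 3.17, 2.45, 2.61 and 3.19 in input and at 3.50, 3.90, 3.25, 3.45 and 3.75 in IP, with none. Chat rose by 0.55 (SE 0.134, adjusted p = 0.00236, limma) in EYFP and by 0.66 (SE 0.179, adjusted p = 0.00496) in hTyr. With a pseudocount of 5 CPM, which lowers the differences of low genes, the rises were 0.35 and 0.43, still past the threshold. It was the least abundant of the 9, at 103 to 255 reads per library.

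The vesicular acetylcholine transporter gene Slc18a3 lies within the Chat gene on the same strand and shares 0 exon bases with it. Slc18a3 did not pass the threshold, with differences of -0.04 in EYFP (SE 0.108, adjusted p = 0.797, limma) and -0.20 in hTyr (SE 0.133, adjusted p = 0.219). Chat exceeded Slc18a3 in IP minus input by 0.71 ± 0.29 (SD, n = 11; 11 of 11 animals), and by 0.47 with the pseudocount of 5 CPM. Slc5a7, the high-affinity choline transporter, rose by 1.27 (SE 0.182) in EYFP and 1.49 (SE 0.126) in hTyr. Ache, which breaks acetylcholine down, rose by 0.42 and 0.49, and its membrane anchor Prima1 fell by 0.66 and 0.83. Of the 5 cholinergic genes 2 rose and 2 fell in each treatment, the other fall being that of Slc44a1, a choline transporter of many cells. Of all genes 28.5% rose and 28.1% fell in EYFP, and 27.4% rose and 27% fell in hTyr.

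**Figure D4:**
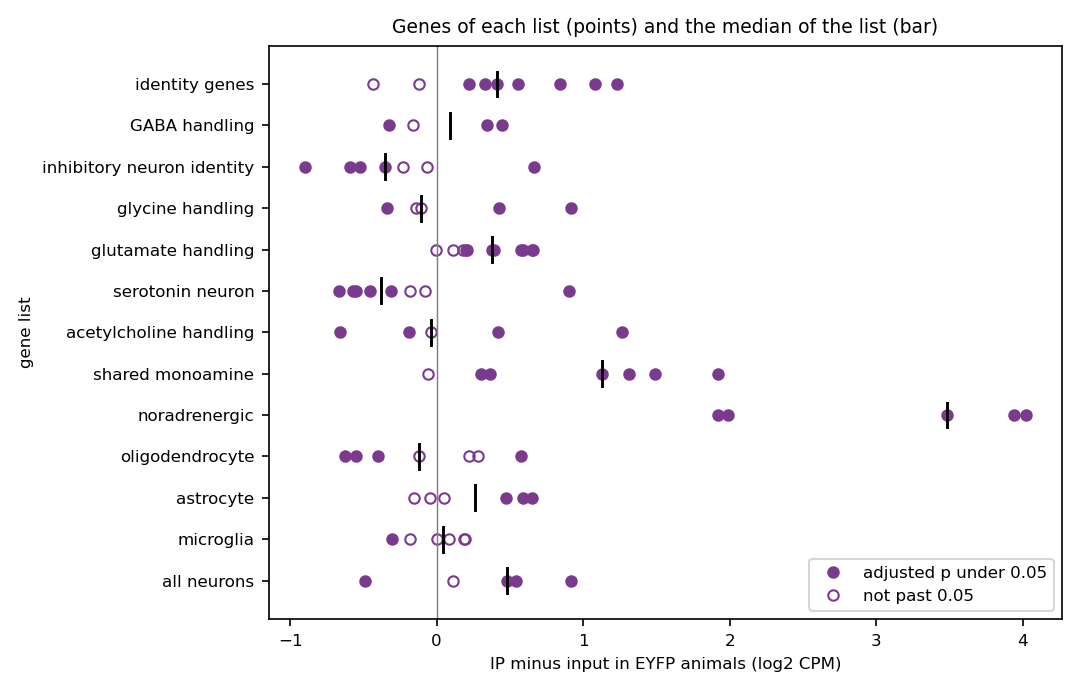
IP minus input in EYFP animals (log2 CPM, horizontal axis; n = 6 libraries each) for the 9 identity genes (top row) and the genes of 12 lists. Filled points passed an adjusted p under 0.05, open points did not, and bars are list medians, which run from -0.38 (serotonin neuron) to 3.49 (noradrenergic).

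hTyr against EYFP asks whether these genes differed by infusion in the IP or in the input tissue. In IP 0 of 9 passed (limma), where 0.0556% of all genes were called, and in input 0 of 9 passed, where 0.00794% were called. At an unadjusted p under 0.05 there were 0 in IP and 1 in input, against 6.19% and 3.03% of all genes, and voom on the recovered reads also called 0 in each. In IP the differences of hTyr minus EYFP ran from -0.24 for Slc17a7 (95% interval -0.83 to 0.34) to 0.27 for Chat (-0.06 to 0.61). Gad1 was at -0.15 (-0.42 to 0.12), Gad2 at 0.0068 (-0.20 to 0.21), Slc32a1 at -0.05 (-0.29 to 0.19) and Slc6a5 at 0.04 (-0.19 to 0.27). Slc17a6 was at 0.14 (-0.15 to 0.43), Tph2 at 0.12 (-0.24 to 0.48) and Slc6a4 at 0.05 (-0.21 to 0.30). Apart from Slc17a7 and Chat, differences beyond 0.5 in either direction thus lay outside these intervals. The 9 genes overlapped between treatments in both fractions, while 0.651% of all genes in IP and 0.175% in input did not. The gene called in input was the noradrenergic Slc6a2, at a mean of 2.12 log2 CPM in hTyr against 3.03 in EYFP. Its regulatory sequence drives the ribosome tag, and the bearing of this difference on the IP comparison was not tested.

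Among the 9, the gene with an unadjusted p under 0.05 in input was Gad1, at -0.19 (95% interval -0.36 to -0.02, unadjusted p = 0.0311, adjusted p = 0.990, limma). Its level was 7.44 ± 0.14 log2 CPM in hTyr (SD, n = 5) against 7.63 ± 0.14 in EYFP (SD, n = 6). The other 8 ran from -0.14 (Gad2 and, with a wider interval of -0.70 to 0.43, Slc17a7) to 0.17 (Chat, -0.15 to 0.49). The interaction asks whether the IP enrichment itself differed between treatments, and 0 of 9 passed, where 0.00794% of all genes were called. At an unadjusted p under 0.05 there were 0, against 3.31% of all genes. The largest was Slc17a6, enriched by 0.25 more in hTyr (95% interval -0.13 to 0.62, adjusted p = 0.996). For the noradrenergic genes the interaction had a median of 0.53, with 0 of 5 past the threshold.

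**Figure D5:**
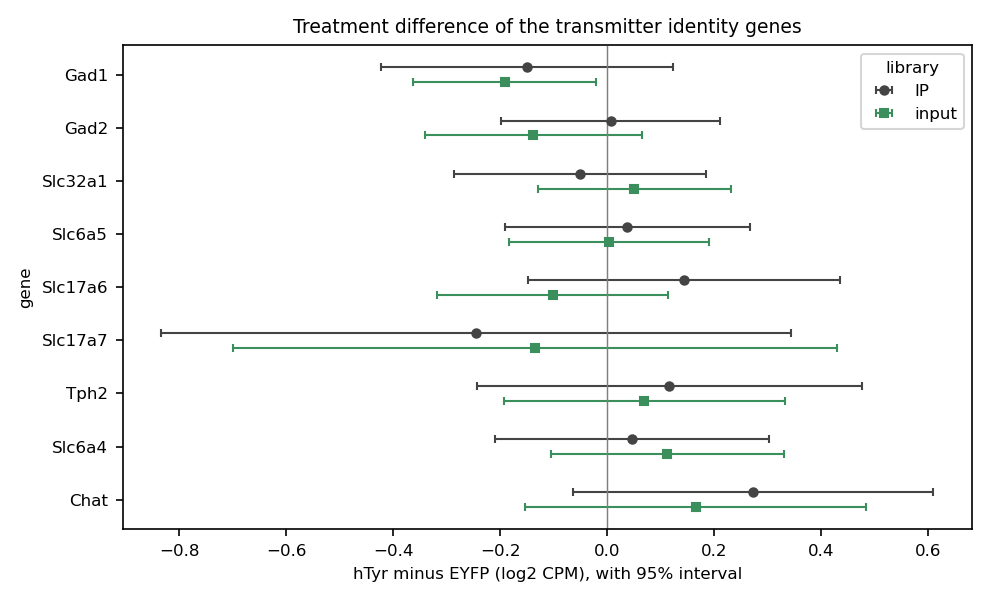
Difference of hTyr minus EYFP (log2 CPM, horizontal axis) for each gene in IP (dark circles) and input (green squares), with 95% intervals from limma (n = 5 and 6 animals). In both fractions the intervals of the 9 genes include 0, except that of Gad1 in input, which ends at -0.02.

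Over the 11 input libraries, 4 of the 36 pairs among the 9 genes correlated past the threshold (Pearson's r, permutation test with Benjamini-Hochberg adjustment over 36 pairs). The count fell to 0 with median centring and to 0 without any one of hTyr-501, hTyr-502, hTyr-508 or EYFP-511, and it was 1 without EYFP-505, 1 without EYFP-512, 2 without EYFP-507 and 2 without hTyr-509. Gad2 and Slc17a6 had r = 0.828 (permutation p = 0.00098, adjusted 0.0353; Spearman's rho 0.791, permutation p = 0.00554, adjusted 0.199). Slc6a5 and Slc17a6 had r = 0.819 (permutation p = 0.0022, adjusted 0.0396; rho 0.727, p = 0.0149, adjusted 0.268). Gad1 and Gad2 had r = 0.781 (permutation p = 0.00517, adjusted 0.0465; rho 0.573, p = 0.0704, adjusted 0.362). Gad2 and Slc6a5 had r = 0.776 (permutation p = 0.00507, adjusted 0.0465; rho 0.591, p = 0.0602, adjusted 0.362). Without the 2 libraries farthest from the median of the first gene of a pair, these r became 0.790, 0.538, 0.305 and 0.525 in the order given, so that of Gad1 and Gad2 rested on those libraries. Within the 6 EYFP animals they were 0.832, 0.894, 0.585 and 0.712. Of the 36 pairs 0 passed by Spearman's rho. Tph2 and Slc6a4, both of serotonin neurons, had r = 0.285 (permutation p = 0.40, adjusted 0.649; rho 0.118, p = 0.737, adjusted 0.884).

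Across the 22 libraries, as deviations from the group means, the genes most like each of the others lay mostly outside the transmitter lists. They were Hif1a for Gad1 (r = 0.915), Ahi1 for Gad2 (0.915), Scn4b for Slc32a1 (0.912), Epb41l3 for Slc6a5 (0.909), Klhl13 for Slc17a6 (0.909), Nceh1 for Tph2 (0.863), Slc6a9 for Slc6a4 (0.800) and Tubb4a for Chat (0.900). These r values are descriptions over libraries of shared animals, picked as the highest of all genes.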

How the data were processed

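The authors deposited one table of log2 values, filtered, normalized and log transformed per its file name. STAR, featureCounts and mm10 are named, per the submitters' processing notes, without versions; filter, normalization and annotation are not given in the sources used here. Back-transformed values were CPM with a pseudocount averaging 2 reads, and 100% gave whole reads (tolerance 0.1 read), 12654489 to 25100142 per library. Fits used limma 3.58.1 (R 4.3.3) on the deposited log2 values, with a trend in the prior variance and Benjamini-Hochberg adjustment over 12596 genes. Each comparison was fitted on its own groups, with no block. Voom on the recovered reads was an alternative. Animal numbers in the titles pair IP with input; deviations from group means correlated within an animal (mean r = 0.448, range 0.279 to 0.626, n = 11). Tests on simulated data with 200 changed genes recovered, by call and direction, most of those with the larger of 2 simulated folds. The size of the fold was not checked, and simulated IP and input were not paired. Correlations used 100000 permutations, in Python 3.11.15.

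The 9 genes and the lists were chosen with earlier results of these data known. The text names all 9, 5 noradrenergic reference genes, up to 2 listed genes with the largest rise and 2 with the largest fall per list, and the genes most alike; others were chosen after their values were seen. Positions and exon lengths are from GENCODE for GRCm38, promoters from RefSeq. Alternatives are given in the closing section. The numbers in the titles are taken as animals, which the labels do not state; p-values measure only the spread between these samples. Read totals cover counting error only, since the reads have no molecular identifiers. A noradrenergic and a GABA gene are not reported here and stand in none of the list counts.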

Additional observations from a re-analysis of the deposited data

Results flagged for a closer look

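Of 36 combinations of gene and group, 4 held a library far from the others of its group, where chance gives about 1.8. Gad2 in EYFP IP was 7.02 log2 CPM in EYFP-505 (2209 reads), against 7.37 in the next library. Gad2 in hTyr input was 6.54 log2 CPM in hTyr-501 (2382 reads), against 6.94 in the next. Slc17a7 in hTyr input was 8.52 log2 CPM in hTyr-509 (8484 reads), against 7.63 in the next. Slc6a4 in hTyr IP was 4.91 log2 CPM in hTyr-510 (574 reads), against 4.42 in the next. The gap divided by the range of the group was 0.675 for Gad2 in EYFP IP, where 0.625 is the critical value for 6 libraries. In the groups of 5 libraries, whose critical value is 0.71, it was 0.725 for Gad2, 0.714 for Slc17a7 and 0.749 for Slc6a4.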

How the results depend on the processing

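Over 331 refits of single genes between IP and input, 0 changed the sign of a difference. The alternatives were no trend, quantile normalization, median centring, a filter keeping 75% of genes, a pseudocount of 5 CPM, voom, a shared spread, sample weights, the replicate block and leaving out each animal, besides those below. Of these, no trend, the filter, a shared spread and the replicate block keep the difference itself, so they could not change its sign. The same holds for the minimum difference below, and some refits repeat the difference of another. Chat fell below the filter and was not tested there. A minimum log2 difference of 1 left 2 genes in EYFP and 2 in hTyr. Leaving out 1 animal gave 6 to 8 genes in EYFP and 5 to 7 in hTyr. The replicate block gave 8 genes in EYFP and 7 in hTyr, the added call being the fall of Slc17a7; it changed no other call. Added after the data were seen, removal of each library's length and GC trend gave 7 in each treatment, and 9 with the replicate block, where Slc6a5 fell too (-0.16 in each). Slc32a1 in EYFP lost its call with no trend, quantile normalization, median centring and a shared spread (adjusted p from 0.0518 to 0.0984), and Slc6a4 in hTyr with quantile normalization and median centring (adjusted p of 0.10 and 0.0889). Sample weights brought Slc17a7 past the threshold in both treatments, as did quantile normalization, median centring and the filter in hTyr.

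No alternative called any of the 9 genes between treatments or in the interaction, nor did leaving out each animal. The differences that changed sign were not past the threshold in any fit. In IP, Gad2 became -0.017 with sample weights, -0.033 with the length and GC trend removed and -0.044 without EYFP-505 and hTyr-509, and Slc6a5 became -0.013 with weights. In input, Slc32a1 became -0.0052 with the trend removed, Slc6a5 -0.046 without EYFP-505 and hTyr-509 and Tph2 -0.046 with weights. In the interaction, Gad1 became -0.017 with the trend removed, with or without the block, and -0.053 without EYFP-505 and hTyr-509. Slc32a1 became 0.0023 with the trend removed, Slc6a5 -0.0094, and, with weights, Slc6a5 -0.022 and Slc17a7 0.095. Leaving out each animal spanned 0 for several. In IP these were Gad2 (-0.063 to 0.041), Slc32a1 (-0.14 to 0.022), Slc6a5 (-0.021 to 0.098) and Slc6a4 (-0.065 to 0.10). In input they were Slc32a1 (-0.0031 to 0.11), Slc6a5 (-0.058 to 0.072), Slc17a7 (-0.34 to 0.084) and Tph2 (-0.046 to 0.15). In the interaction they were Gad1 (-0.032 to 0.085), Slc32a1 (-0.14 to 0.0022), Slc6a5 (-0.023 to 0.10), Tph2 (-0.063 to 0.14) and Slc6a4 (-0.17 to 0.031). The cause was not tested.

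The 4 correlated pairs became 0 with median centring, 0 by Spearman's rho, 2 as deviations from the treatment means, 1 without EYFP-505 and hTyr-509 and 0 to 3 without 1 animal. The 6 differences between a pair of genes in IP minus input kept their sign with quantile normalization, a pseudocount of 5 CPM, the length and GC trend removed, each animal left out and EYFP-505 and hTyr-509 left out. They moved by less than 1 SD, except that with the trend removed Gad1 minus Slc32a1 became 0.32 and Slc32a1 minus Slc6a5 0.60. Chat, at 103 reads in its lowest library, has the least depth.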
